A study of Mus musculus with 25 samples.

Results

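The genes described here mark the loop of Henle, the distal tubule and the collecting duct of the kidney, and they were measured in CD11b+ myeloid cells sorted from mouse kidneys. The 9 genes are Umod, Egf, Slc12a1, Slc12a3, Defb1, Aqp2, Calb1, Kl and Cdh16, out of 18194 genes with a probe set of their own on the array. They were chosen by name, and each is represented by the probe set with the highest mean log2 value over 21 arrays. All animals were male C57BL/6 mice of 8 to 10 weeks. In injured animals both kidneys were made ischemic for 28 min and then reperfused for 4 h, 24 h or 9 days, and sham animals had the same surgery without clamping, with no time after surgery given in the labels. The cells were sorted by their Ly6C level into 8 groups: Ly6C High after sham surgery (2 arrays) and at 4 h (3 arrays), Ly6C Intermediate after sham surgery (2 arrays), at 4 h, at 24 h and at 9 days (3 arrays each), and Ly6C Low after sham surgery (2 arrays) and at 9 days (3 arrays). Before hybridisation, the small amounts of RNA were amplified across the whole transcriptome. For 4 h High replicate 30, 1 line of the labels names 9 days while the others give 4 h, which was used. A further 3 arrays labelled sham 58, in the High gate, whose labels do not tell whether they come from 3 animals or 1, and 1 array of reference RNA entered no comparison. Arrays that carry the same animal number in different gates were taken as the same animal, and the replicates below are named by these numbers.

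The thick ascending limb of the loop reabsorbs salt without water. The distal convoluted tubule, the connecting tubule and the collecting duct then adjust sodium, calcium and water under hormonal control. The genes of these segments are products of epithelial cells and are not part of the usual programme of monocytes or macrophages. In bulk samples such as these, fewer epithelial cells and less RNA per cell cannot be told apart. The source of these transcripts in the sorted samples was not tested.

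The arrays differed in yield, measured as the share of all probe sets on the array that the deposited detection calls list as present (P, against A for absent and M for marginal). This share ran from 1.99% to 40.0%, and it was under 5% on 3 arrays, sham High replicate 1 and 9 day Intermediate replicates 8 and 13. The 3' to 5' signal ratio of Gapdh, a measure of RNA integrity, was 298 on sham High replicate 1, 431 on sham Intermediate replicate 1 and 28.3 on sham High replicate 2, and between 0.923 and 19.7 on the other 18 arrays. A probe set of the sort marker Ly6c1/Ly6c2 did not follow the gate labels in sham animals. In these its log2 values were 2.83 and 12.03 in sham High, against 11.66 and 10.26 in sham Intermediate and 12.57 and 10.37 in sham Low. At 9 days the marker was at 5.25 (P), 4.32 (A) and 4.76 (M) in Low, and in Intermediate at 5.27 (A) and 5.01 (A) on replicates 8 and 13 against 10.92 (P) on replicate 9. The Low groups of sham and 9 days thus differed in the marker of their own gate, and the part of this in the results below was not tested. Of 12 myeloid genes, among them the general markers of monocytes and macrophages, all were called P on each sham Low and 9 day Low array, and the mean log2 value of the list was 11.45 to 11.78 in sham Low and 11.76 to 12.00 in 9 day Low. On sham High replicate 1, 1 of the 12 genes was called P, and on 9 day Intermediate replicates 8, 9 and 13 it was 7, 11 and 10, with list means of 7.66, 11.85 and 9.28.

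Transcripts of all 9 tubule genes were present in sorted samples from sham kidneys, still present in most samples at 4 h, and mostly undetected at 9 days. In sham Intermediate and in sham Low, 18 of 18 possible calls (9 genes on 2 arrays) were P. The counts were 22 of 27 in 4 h High and 22 of 27 in 4 h Intermediate, 10 of 27 in 24 h Intermediate, 3 of 27 in 9 day Intermediate and 6 of 27 in 9 day Low. In sham High 7 of 18 calls were P, and all 7 came from replicate 2. The mean log2 value over the 9 genes was 10.26 in sham Intermediate and 10.00 in sham Low, 9.02 in 4 h Intermediate and 8.75 in 4 h High, 5.68 in 24 h Intermediate, 4.69 in 9 day Intermediate and 3.88 in 9 day Low.

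**Figure D1:**
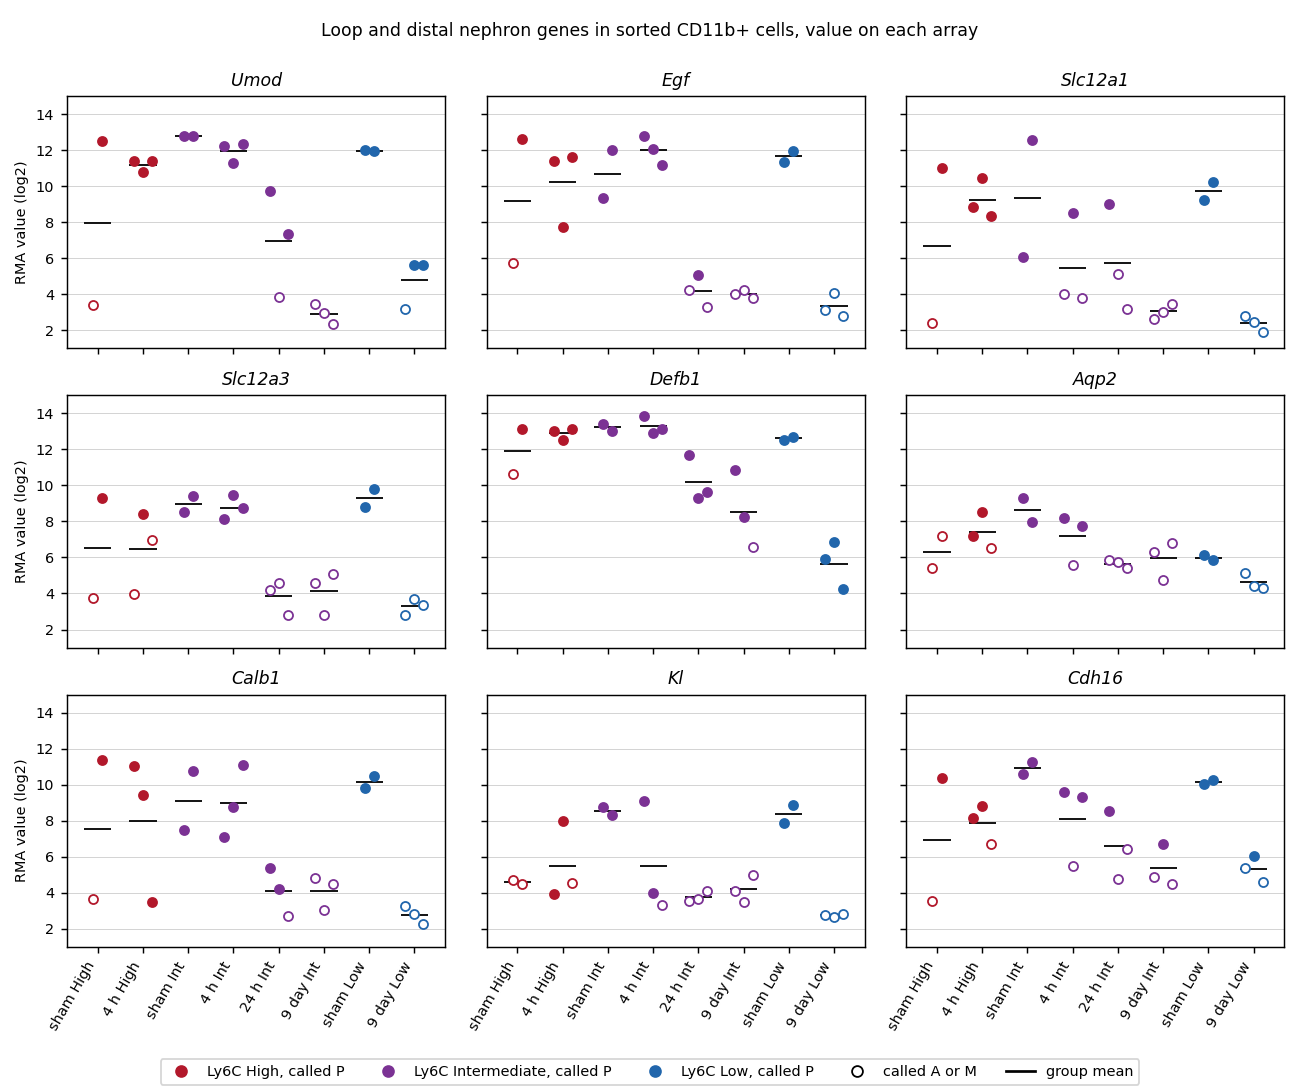
RMA log2 value of each of the 9 genes on each of the 21 arrays, by group of gate and time; filled points were called P, open points A or M, and lines are group means. In the sham Intermediate and sham Low groups all points are filled, and at 9 days the points of 7 of 9 genes in Intermediate and 6 of 9 in Low are all open.

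Yield and P calls of the 9 genes are given side by side; the part of yield in the fall was not tested apart from the fits named below. The 9 day Low arrays had 25.3%, 32.8% and 37.3% of all probe sets called P and 1, 3 and 2 of the 9 genes. The sham Low arrays had 40.0% and 27.4% and all 9 genes, and sham Intermediate replicate 1 had 15.9% and all 9 genes. In 9 day Intermediate, replicate 9 was the only array above 5%, with 25.5% of probe sets and 2 of the 9 genes called P. The 24 h Intermediate arrays (replicates 7, 8 and 9) had 19.2%, 10.1% and 11.4% and 5, 3 and 2 genes. The 4 h Intermediate arrays (replicates 30, 32 and 33) had 11.9%, 17.7% and 12.3% and 8, 7 and 7 genes. Over the 21 arrays the log2 value of each gene correlated with the array's share of P calls at a Pearson r between -0.35 and 0.26, and over the 18 arrays above 5% at an r between -0.50 and -0.02. These values are a description over arrays that share animals, groups and amplification.

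**Figure D2:**
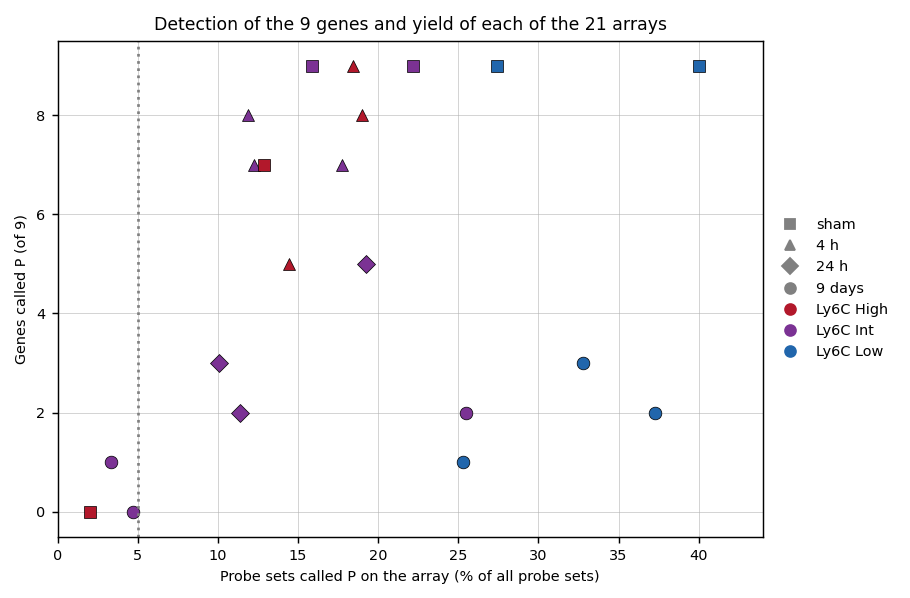
Number of the 9 genes called P against the share of all probe sets called P, 1 point for each of the 21 arrays; shape gives the time, colour the Ly6C gate, and the dotted line the 5% mark. The 9 day Low arrays lie at 25.3% to 37.3% with 1 to 3 genes, and the sham Low arrays at 27.4% and 40.0% with 9 genes.

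Upstream sequence is shown for Umod, Egf and Slc12a3, the genes with a promoter entry that passed a test below, as the 250 bases before the start that RefSeq gives on build GRCm38.p6. Promoter windows from 250 bases before to 50 after the start were matched for 6 of the 9 genes (Umod, Egf, Slc12a1, Slc12a3, Aqp2 and Kl; 7 windows, since Egf has 2 starts). Each window was searched on both strands for GTTAAT, part of a site bound by transcription factors of tubule cells. They were also searched for the promoter element spelled TATAAA, known to lie a short way upstream of many starts. GTTAAT was found in 1 of the 6 genes, Umod, and in 7.10% of all 32851 windows, and TATAAA in 1 of the 6 genes, Slc12a3, and in 13.6% of all windows. The printed stretches lie at chr7:119479263-119479512 (minus strand) for Umod, chr3:129755323-129755572 (minus strand) for Egf and chr8:94328958-94329207 (plus strand) for Slc12a3, whose start in the promoter table lies inside the bounds of the gene given below. Capitals mark these letters, whose first base lies 202 bases before the Umod start and 32 bases before the Slc12a3 start.
Umod: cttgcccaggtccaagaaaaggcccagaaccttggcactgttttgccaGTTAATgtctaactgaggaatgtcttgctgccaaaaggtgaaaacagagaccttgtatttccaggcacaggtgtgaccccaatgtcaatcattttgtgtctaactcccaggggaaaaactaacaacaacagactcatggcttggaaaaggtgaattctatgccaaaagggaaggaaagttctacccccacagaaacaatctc
Egf: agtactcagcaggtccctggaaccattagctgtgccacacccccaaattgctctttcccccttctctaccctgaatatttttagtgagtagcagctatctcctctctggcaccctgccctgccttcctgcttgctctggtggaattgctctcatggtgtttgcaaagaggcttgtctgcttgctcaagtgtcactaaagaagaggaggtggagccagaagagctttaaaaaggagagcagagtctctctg
Slc12a3: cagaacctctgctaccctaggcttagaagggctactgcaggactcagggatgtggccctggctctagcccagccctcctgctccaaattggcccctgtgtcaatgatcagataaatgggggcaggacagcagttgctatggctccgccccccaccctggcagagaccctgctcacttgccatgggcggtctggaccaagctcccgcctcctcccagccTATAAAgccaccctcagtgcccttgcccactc

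Umod (chr7:119462708-119479262, probe set 1456306_a_at) encodes uromodulin, the protein that thick ascending limb cells shed into urine. The transcript was measured at log2 values of 12.81 and 12.80 in sham Intermediate, 12.00 and 11.98 in sham Low, and 12.52 on sham High replicate 2, all called P. At 4 h the values were 11.39, 10.79 and 11.39 in High (replicates 30, 32 and 33) and 12.26, 11.27 and 12.34 in Intermediate, again all P. All 6 arrays at 4 h were thus below both sham Intermediate arrays, and the 4 h Intermediate arrays overlapped sham Low. At 24 h the Intermediate arrays spread widely, with 9.73 (P), 3.88 (A) and 7.34 (P) for replicates 7, 8 and 9. At 9 days the values were 3.45, 2.94 and 2.36 in Intermediate (replicates 8, 9 and 13), all A, and 3.19 (A), 5.63 (P) and 5.65 (P) in Low. Every array at 24 h and 9 days lay below every sham array except sham High replicate 1, an array of low yield at 3.43 (A). A second Umod probe set followed the first at a Pearson r of 0.99 over the 21 arrays.

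Slc12a1 (chr2:125152510-125230002, 1424260_at) encodes the sodium-potassium-chloride cotransporter of the thick ascending limb, the target of loop diuretics. Slc12a1 stood at log2 values of 6.07 and 12.60 in sham Intermediate, 9.26 and 10.27 in sham Low and 11.00 on sham High replicate 2, all P. At 4 h it was called P on all 3 High arrays (8.86, 10.44 and 8.38) but on 1 of 3 Intermediate arrays (4.01, 8.54 and 3.79, with 8.54 the P call). At 24 h replicate 7 was called P at 9.00, and the other two were A at 5.11 and 3.20. No array at 9 days was called P, with values from 1.92 to 3.46. The sham Intermediate arrays differed from each other by more than any pair of arrays within the 4 h Intermediate group did. A second probe set of the gene was not called P on any array.

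Egf (chr3:129677574-129755322, 1418093_a_at) encodes the precursor of epidermal growth factor, which cells of the thick ascending limb and distal tubule carry on the luminal membrane. Egf had log2 values of 9.37 and 12.05 in sham Intermediate, 11.36 and 11.98 in sham Low, and 12.61 on sham High replicate 2, all P. At 4 h all 6 arrays were P, at 12.77, 12.07 and 11.20 in Intermediate and 11.42, 7.77 and 11.62 in High. The 4 h Intermediate values overlapped the sham Intermediate values. At 24 h they were 4.26 (A), 5.06 (P) and 3.32 (A), so that no 24 h array reached the lowest sham Intermediate array. At 9 days none was P, with 4.03, 4.27 and 3.78 in Intermediate and 3.13, 4.09 and 2.81 in Low. The 24 h and 9 day Intermediate means, 4.21 and 4.02, differed by less than the SD at 24 h of 0.872.

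Slc12a3 (chr8:94329109-94366222, 1422856_at) encodes the thiazide-sensitive sodium-chloride cotransporter that defines the distal convoluted tubule. Slc12a3 had log2 values of 8.53 and 9.43 in sham Intermediate, 8.82 and 9.78 in sham Low and 9.32 on sham High replicate 2, all P. At 4 h all Intermediate arrays were P (8.13, 9.46 and 8.73), and of the High arrays replicate 32 was (8.44), while replicates 30 and 33 were A at 3.99 and M at 6.98. No array was called P at 24 h (4.19, 4.59 and 2.78) or at 9 days (4.56, 2.80 and 5.07 in Intermediate, 2.79, 3.67 and 3.37 in Low). The sham and 4 h Intermediate groups overlapped, and both lay apart from the 24 h and 9 day groups. Another Slc12a3 probe set did not follow this one, with a P call on 1 array and a Pearson r of 0.10 between them.

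Calb1 (chr4:15881264-15906709, 1417504_at) encodes a calcium-buffering calbindin of the distal convoluted and connecting tubule. Calb1 was at log2 values of 7.47 and 10.74 in sham Intermediate and 9.83 and 10.49 in sham Low, all P. The 4 h arrays were all P but ranged from 3.50 to 11.07. At 24 h 2 of 3 arrays were P, at 5.38 and 4.23, and at 9 days none was, with values from 2.28 to 4.78. A P call went with a value of 3.50 on one array and an A call with 4.78 on another, so the calls do not follow one level. The other Calb1 probe sets were each called P on 2 arrays. Their Pearson r to the probe set used here was 0.42, 0.33 and 0.33.

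Kl (chr5:150952607-150993817, 1423400_at) encodes klotho, the co-receptor through which distal tubule cells respond to a phosphate-regulating hormone from bone. Its log2 values were 8.78 and 8.33 in sham Intermediate and 7.88 and 8.85 in sham Low, all P, but 4.49 (A) on sham High replicate 2, on which 7 of the 9 genes were P. At 4 h the values split within each gate, with 9.09 on replicate 30 against 3.98 and 3.33 on replicates 32 and 33 in Intermediate, and 7.98 on replicate 32 against 3.90 and 4.53 on replicates 30 and 33 in High. The high array came from different animals in the 2 gates. No array at 24 h or 9 days was called P, with values from 2.64 to 4.98. Another Kl probe set did not follow this one, with P calls on 2 arrays and a Pearson r of 0.05 between them.

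Aqp2 (chr15:99579056-99584545, 1418903_at) encodes the vasopressin-regulated water channel of the principal cells of the collecting duct. Of the 9 genes it had the smallest spread over the 21 arrays, with an SD of 1.38 on the log2 scale. Its values were 9.30 and 7.99 in sham Intermediate and 6.13 and 5.86 in sham Low, all P. At 4 h they were 8.20, 5.61 and 7.73 in Intermediate and 7.20, 8.52 and 6.55 in High, with 2 of 3 arrays P in each. No array at 24 h or 9 days was called P, yet the 9 day Intermediate values of 6.29, 4.72 and 6.83 overlapped those of sham Low. The 2 higher of them were the arrays of low yield.

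Defb1 (chr8:21776555-21795185, 1419491_at) encodes beta-defensin 1, an antimicrobial peptide that the epithelium of the loop, distal tubule and collecting duct makes without prior stimulation. Of the 9 genes it had the most P calls, on 19 of 21 arrays. Its log2 values were 13.42 and 13.05 in sham Intermediate, 12.55 and 12.72 in sham Low, and 12.50 to 13.84 on the 6 arrays at 4 h. They were 11.68, 9.32 and 9.64 at 24 h. At 9 days they were 10.84 (P), 8.22 (P) and 6.56 (A) in Intermediate and 5.92, 6.84 and 4.23 in Low, all P. Defb1 was thus detected on all 9 day Low arrays, at values that lay below every sham and 4 h array. Among the arrays of low yield it was 10.65 (A) on sham High replicate 1, 10.84 (P) on 9 day Intermediate replicate 8 and 6.56 (A) on replicate 13. Its second probe set followed the first at a Pearson r of 0.87.

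Cdh16 (chr8:104601915-104624396, 1448906_at) encodes a kidney-specific cadherin of the basolateral membrane of tubule cells. Its log2 values were 10.59 and 11.28 in sham Intermediate, 10.04 and 10.23 in sham Low, and 10.34 on sham High replicate 2, all P. At 4 h 4 of 6 arrays were P, with values from 5.46 to 9.56, and all 6 lay below all 5 of these sham arrays. At 24 h replicate 7 was P at 8.56 and the other two were A at 4.78 and 6.42. At 9 days replicate 9 was P in both gates, at 6.72 in Intermediate and 6.03 in Low, and the other arrays were A, from 4.45 to 5.36.

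For 8 of the 9 genes the 9 day Low group had the lowest mean, and for Umod the 9 day Intermediate group did. Few neighbours in the order of the 8 group means were resolved: of 63 neighbouring pairs over the 9 genes, 7 had ranges apart, and in 48 the gap was within the larger SD of the 2 groups. For Cdh16, for example, the lowest means of 5.35 in 9 day Intermediate and 5.32 in 9 day Low differed by less than the spread of either group. In sham animals the Intermediate and Low means of Egf, Slc12a1, Slc12a3, Calb1 and Kl lay closer than the larger of their SDs. Umod (12.80 against 11.99), Defb1 (13.24 against 12.63), Aqp2 (8.65 against 6.00) and Cdh16 (10.93 against 10.14) were higher in sham Intermediate than in sham Low with no overlap between 2 arrays and 2, that is 4 of 9 genes against 12.9% of all genes in that direction. None of these differences passed the test that follows, and that of Aqp2 had the smallest p (log2 difference 2.65 ± 1.04, standard error, limma adjusted p = 0.435). In the sham comparison of Intermediate with Low, 0 of the 9 genes passed, against 0.0719% of the 8341 genes tested by limma, and 1 had an unadjusted p under 0.05, against 9.06%.

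Differences between groups were tested with limma on all 8341 genes called P on at least 2 arrays of a group, two-sided, with p-values adjusted over all of them by Benjamini-Hochberg and a threshold of 0.05. All 9 genes passed this filter through groups where they are high, among them sham Intermediate and sham Low with P calls on both arrays, so the counts below are a description. Comparisons with the same sham group share its 2 arrays. Over the 8 groups, the F test was passed by 4 of the 9 genes and by 3.94% of all genes tested: Egf (adjusted p = 0.00382), Defb1 (0.00387), Umod (0.0147) and Slc12a3 (0.0305). The adjusted p of the other 5 genes lay between 0.0826 for Kl and 0.162 for Cdh16. The F test call of Slc12a3 was lost in 9 of 21 fits that each left out 1 array, with an adjusted p of up to 0.0724.

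At 4 h the differences from sham in the Intermediate gate ran from -3.88 to 1.31 on the log2 scale. None of the 9 genes passed the limma test, against 0.216% of all genes, and 2 lay below both sham arrays with ranges apart, Umod and Cdh16, against 12.6% of all genes. At an unadjusted p under 0.05 there was 1 gene, against 7.06% of all genes, Kl with a log2 difference of -3.09 ± 1.38 (standard error) and a limma adjusted p of 0.669. The median difference of the 9 genes was -0.85 and that of all genes tested -0.09. In the High gate 0 of the 9 genes passed, against 0.432% of all genes, and the median was 0.99 against 0.74 for all genes. At an unadjusted p under 0.05 there were 0 of the 9 genes, against 1230 of the 8341 genes tested. Without 4 h High replicate 30 the count of the 9 genes that passed was also 0. That comparison rests on sham High, where replicate 1 had no P call among the 9 genes and replicate 2 had 7. Between the High and Intermediate gates at 4 h, limma called 0 of the 9 genes and 0% of all genes, with 0 and 500 genes at an unadjusted p under 0.05.

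At 24 h all 9 genes lay below sham in the Intermediate gate, with a median difference of -4.79 on the log2 scale against -0.07 for all genes, and the values of 8 of them lay below all sham values, against 14.2% of all genes. None passed the limma test after adjustment, against 0.456% of all genes, while 8 had an unadjusted p under 0.05, against 9.63% of all genes. Egf had the smallest, with a difference of -6.50 ± 1.54 (adjusted p = 0.062), followed by Slc12a3 with -5.12 ± 1.40 (0.122) and Kl with -4.79 ± 1.38 (0.141). Aqp2 (-2.98 ± 0.95), Umod (-5.82 ± 1.88), Cdh16 (-4.35 ± 1.64), Defb1 (-3.03 ± 1.16) and Calb1 (-5.00 ± 2.08) had adjusted p-values from 0.217 to 0.423. The 3 arrays at 24 h differed among themselves, with means over the 9 genes of 6.91, 5.15 and 4.99 and P calls for 5, 3 and 2 genes. The array with 5 genes had the highest yield, 19.2% against 10.1% and 11.4%, and the part of yield in this spread was not tested. Without the 3 arrays of low yield, none of which belongs to these 2 groups, the standard error of Egf was 1.15 and 2 genes passed, Egf (adjusted p = 0.0161) and Slc12a3 (0.0376), with 100 genes called in all.

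At 9 days Umod fell in the Intermediate gate. Its mean was 12.80 in sham and 2.92 at 9 days, a log2 difference of -9.89 ± 1.88 (standard error, 2 against 3 arrays, limma adjusted p = 0.0233). This is at least 948-fold lower, where the floor for a group without P calls was, array by array, the smallest value of any probe set called P. The floor lay below the measured values, so the fold equals the fitted one and does not cover the spread between arrays. Umod was the 1 of 9 genes that passed in this comparison, against 0.683% of all genes. All 9 had an unadjusted p under 0.05, against 12.6% of all genes, and all 9 lay below sham with ranges apart, against 15.7% of all genes. The differences ran from -2.70 for Aqp2 to -6.68 for Egf among the other 8, with adjusted p-values from 0.0557 for Egf to 0.318 for Calb1. The median of the 9 genes was -5.01 against -0.45 for all genes. The 12 myeloid genes had a median of -0.99 in the same comparison, with 9 of 12 below 0 and none called (1 at an unadjusted p under 0.05), and their part in the result was not tested. The Umod call was lost without 9 day Intermediate replicate 8 (adjusted p = 0.0606) or 13 (0.0815) and without sham Intermediate replicate 1 (0.0751) or 2 (0.130). Leaving out the low-yield arrays keeps replicate 9 alone at 9 days and assumes that it varies like the other groups; the Umod difference was then -9.86 with an adjusted p of 0.0206. With the share of P calls as a covariate it was -8.80 with an adjusted p of 0.0535, and 0 of the 9 genes passed.

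In the Low gate Egf, Defb1 and Slc12a3 fell at 9 days, the 3 of 9 genes that passed, against 0.995% of all genes. The mean of Egf was 11.67 in sham and 3.34 at 9 days, a difference of -8.32 ± 1.54 (adjusted p = 0.0144), or at least 321-fold. Defb1 went from 12.63 to 5.66, a difference of -6.97 ± 1.16 (adjusted p = 0.00849). Slc12a3 went from 9.30 to 3.28, a difference of -6.02 ± 1.40 (adjusted p = 0.0485), or at least 65.0-fold. Here too the floor lay below the measured values, so the folds of Egf and Slc12a3 equal the fitted ones. They do not cover the spread between arrays. The Slc12a3 call was at the threshold: it was lost with the animal as a random block (adjusted p = 0.0501) and in 16 of 21 fits that left out 1 array (up to 0.404). The Egf call was lost without sham Low replicate 1 (0.0643) or 2 (0.175), and the Defb1 call without sham Low replicate 2 (0.112). On the deposited signals in place of the RMA values, the 9 day calls of Umod in Intermediate (adjusted p = 0.0824) and of Defb1 (0.0658) and Slc12a3 (0.0921) in Low were lost.

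The other 6 genes were lower at 9 days in the Low gate as well, and did not pass. For all 9 genes the 9 day Low values lay below both sham Low values, against 18.5% of all genes, and 8 had an unadjusted p under 0.05, against 10.5% of all genes. Kl had a difference of -5.62 ± 1.38 (adjusted p = 0.0589) and Umod one of -7.17 ± 1.88 (0.0755). Calb1 had -7.38 ± 2.08 (0.101), Slc12a1 -7.37 ± 2.23 (0.137) and Cdh16 -4.82 ± 1.64 (0.202). Aqp2, with an unadjusted p of 0.169, had -1.37 ± 0.95 (0.764). The median of the 9 genes was -6.97, against -0.12 for all genes and -0.02 for the 12 myeloid genes, of which none passed. Since the sort marker did not separate the sham gates, the 9 day Low arrays were also set against the mean of sham Intermediate and sham Low, a comparison added after the data were seen. There 8 of the 9 genes passed, all but Aqp2, against 2.89% of all genes. Each sham animal entered this mean through both gates, and the fit had no block for the animal, so these arrays are not independent replicates.

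**Figure D3:**
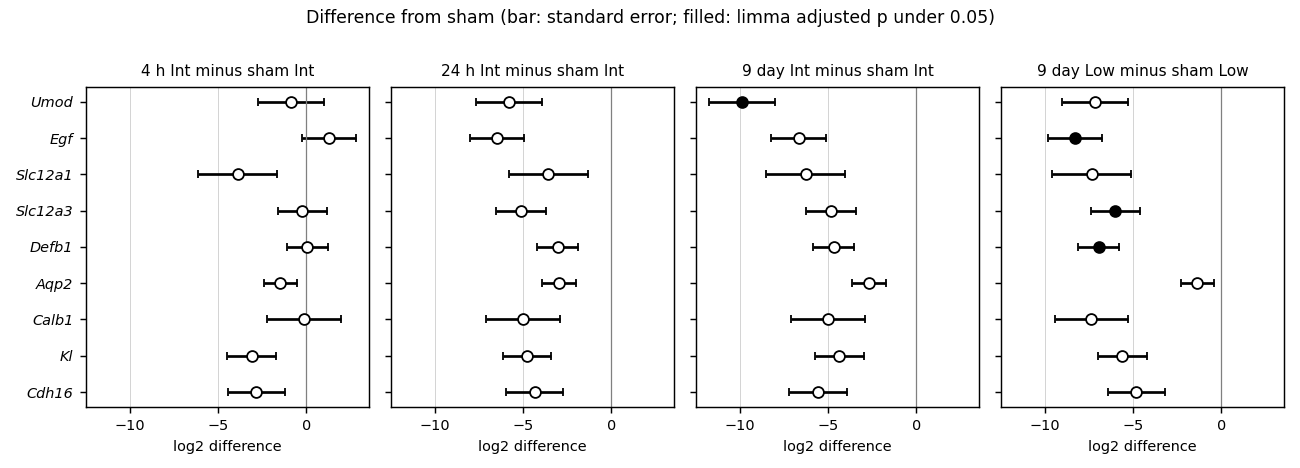
Log2 difference from sham of the 9 genes in 4 comparisons (points, with the standard error of the limma model as bars); filled points have an adjusted p under 0.05. At 4 h the points lie on both sides of 0, and at 24 h and 9 days all lie below 0, with Umod filled in 9 day Intermediate and Egf, Slc12a3 and Defb1 in 9 day Low.

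The 2 gates were not shown to differ in this fall. Between 9 day Intermediate and 9 day Low limma called 0 of the 9 genes, against 0.623% of all genes, and 1 had an unadjusted p under 0.05, against 20.4%. Defb1 had the smallest p, with a mean of 8.54 in Intermediate and 5.66 in Low (difference 2.88 ± 1.04, adjusted p = 0.156). The difference of the 9 day effects, Intermediate minus Low, was not called for any of the 9 genes or for any gene tested (0%), with 0 and 615 at an unadjusted p under 0.05. It ran from -2.72 to 2.37 on the log2 scale over the 9 genes.

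Other genes of the same segments had medians below 0 at 24 h and 9 days, and few passed the limma tests. Some of them were still called P at 9 days, as given below. Of 12 further thick ascending limb genes with a probe set, 9 were tested, and Sostdc1, which encodes a secreted inhibitor of BMP and Wnt signals, passed the F test. The median difference of the 9 was -2.86 at 24 h, -3.10 at 9 days in Intermediate and -4.41 at 9 days in Low. The mean of Sostdc1 was 9.38 in sham Intermediate and 9.43 in sham Low, and the gene fell at 24 h (difference -5.47 ± 0.97, limma adjusted p = 0.0183), at 9 days in Intermediate (-4.71 ± 0.97, 0.0344) and at 9 days in Low (-5.41 ± 0.97, 0.0138). At 4 h its difference in Intermediate was already -4.41 ± 0.97 (adjusted p = 0.0862), with no P call on the 3 arrays, which is unlike Umod and Egf on the same arrays (difference between genes not tested). Kcnj1, the potassium channel that recycles potassium for the cotransporter, had 9 day Low and sham Low means of 3.20 and 8.55 (difference -5.36 ± 1.28, adjusted p = 0.0538). The tight junction claudins Cldn10 and Cldn16 did not pass in any comparison.

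None of 11 tested genes of the distal convoluted and connecting tubule passed the limma F test (4 at an unadjusted p under 0.05), and their medians were -1.71 at 24 h, -1.75 at 9 days in Intermediate and -3.86 at 9 days in Low. S100g, a calcium-binding protein, had means of 12.55 in sham Low and 8.62 in 9 day Low (adjusted p = 0.383), and Klk1, the tissue kallikrein, of 12.46 and 4.54 (0.159). Slc16a7, a monocarboxylate transporter, had means of 8.80 and 4.51 (0.179). Wnk1, a kinase gene that many cell types use, had 9.94 and 11.51 (0.977), so its value was not lower at 9 days in this gate. S100g, Klk1 and Wnk1 were called P on all 3 arrays of 9 day Low, and Slc16a7 on 2. Of the 12 genes of this list with a probe set, 4, 9 and 5 were P on 9 day Low replicates 8, 9 and 13. On 9 day Intermediate replicates 8, 9 and 13 it was 0, 5 and 1, and on the sham Low arrays 12 and 10. The 9 day Low arrays called 2, 0 and 1 of 12 thick ascending limb genes and 4, 4 and 3 of 20 collecting duct genes P.

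Of 20 further collecting duct genes 9 were tested, and the ammonia transporters Rhcg and Rhbg passed the F test (adjusted p = 0.0305 and 0.0449). Rhbg fell at 24 h in Intermediate, from 9.24 and 9.95 on the sham arrays to a mean of 4.30 (difference -5.30 ± 1.02, limma adjusted p = 0.0267), while its mean in sham Low was 5.47. Rhcg had a mean of 8.67 in sham Intermediate and 3.38 at 4 h (difference -5.29 ± 1.16, adjusted p = 0.0862). The sodium channel subunit gene Scnn1a and Tmem213 had 24 h differences of -3.62 ± 0.84 and -4.18 ± 1.49 (adjusted p = 0.06 and 0.294). The medians of the 9 collecting duct genes were -3.62 at 24 h, -3.35 at 9 days in Intermediate and -3.30 at 9 days in Low. Of 11 tested epithelial genes shared along the nephron, none passed the limma F test (7 at an unadjusted p under 0.05). Atp1b1, a sodium pump subunit, had the lowest adjusted p at 9 days in Intermediate (means of 13.34 and 6.30, adjusted p = 0.071), and the keratin Krt8, the cadherin Cdh1 and Wfdc2 had 0.105 to 0.329.

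Proximal tubule genes ran alongside. Of 25 genes tested, 8 passed the F test, 1 passed at 4 h, 2 at 24 h and 6 at 9 days in the Intermediate gate, and 0 at 9 days in the Low gate (15 at an unadjusted p under 0.05), all of them lower. The medians were -1.35, -4.29 and -5.15 in Intermediate and -3.48 in Low, against -0.85, -4.79, -5.01 and -6.97 for the 9 distal and loop genes. The difference between both lists was not tested. Slc34a1, a phosphate transporter, fell at 9 days in Intermediate from a mean of 11.19 to 3.30 (difference -7.89 ± 1.44, limma adjusted p = 0.0223), and Slc5a12, a lactate transporter, from 9.76 to 2.19 (-7.57 ± 1.36, 0.0223). Lrp2, the endocytic receptor megalin, fell at 4 h in Intermediate from 9.55 to 3.32 (-6.23 ± 1.06, limma adjusted p = 0.0171), with 0 P calls. On the same 3 arrays Slc34a1 and Acsm2 were called P on all 3 and Slc5a12 on 2. Of the 9 distal and loop genes, Umod, Egf, Slc12a3, Calb1 and Defb1 were P on all 3. Aqp2, Kl and Cdh16 were P on 2 and Slc12a1 on 1. Acsm2 had a 9 day Intermediate difference of -5.97 ± 1.37 (adjusted p = 0.0557).

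**Figure D4:**
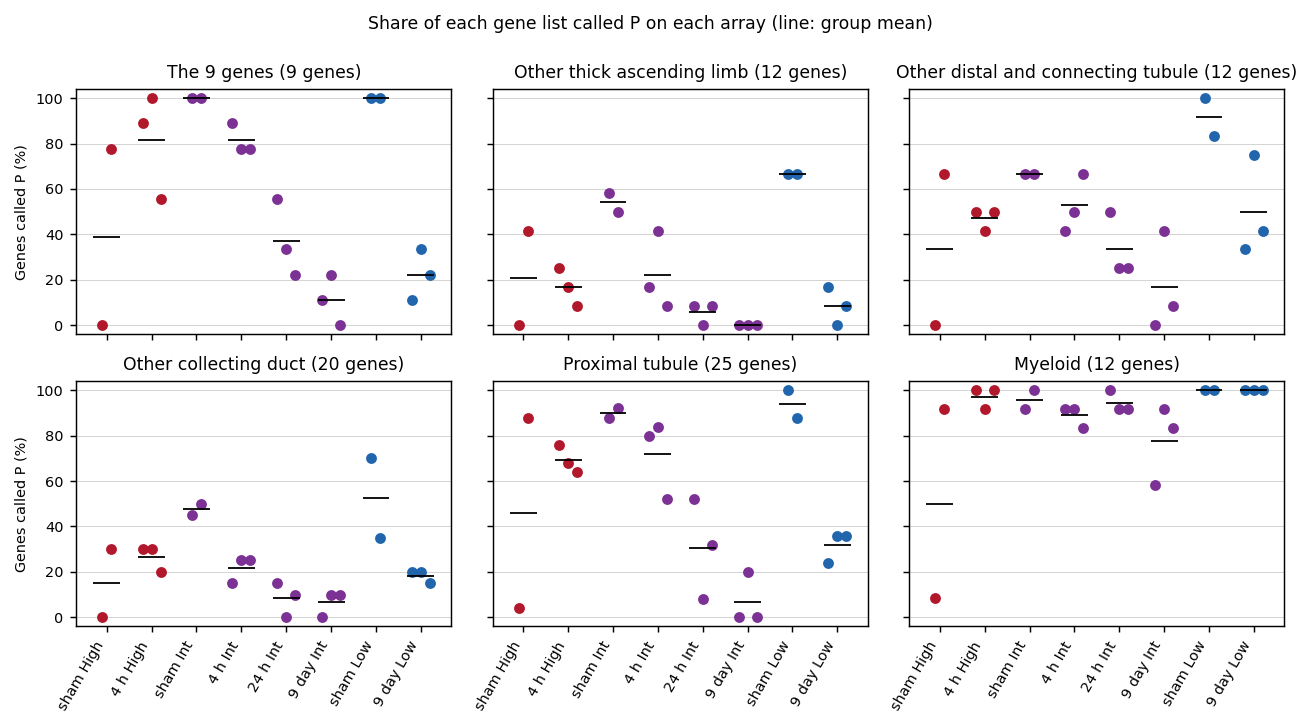
Share of the genes of 6 lists called P on each of the 21 arrays (points, coloured by Ly6C gate) with group means (lines). The 9 genes are at 100% on all 4 sham Intermediate and sham Low arrays and between 0 and 33.3% on the 6 arrays at 9 days, while the 12 myeloid genes are at 100% on the 3 arrays of 9 day Low and at 58.3% to 91.7% on those of 9 day Intermediate. The 12 other distal and connecting tubule genes are at 33.3% to 75% in 9 day Low and at 0 to 41.7% in 9 day Intermediate.

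Genes of other kidney cell types did not pass any of these tests, with few of them detected. None of the tested genes of podocytes (3 of 5 with a probe set), endothelium (2 of 8), fibroblasts and mural cells (4 of 8) and tubule injury (4 of 7) passed the F test, and none of 3 erythrocyte genes was detected often enough to be tested. On arrays above 5% yield the podocyte list had 0 to 3 genes called P and the endothelial list 0 to 3. The part of any other cell type in the fall of the 9 genes was not tested.

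The 9 genes followed each other over the arrays. Over the 36 pairs the Pearson r over 21 arrays had a median of 0.70, from 0.46 for Slc12a1 and Aqp2 to 0.87 for Umod and Egf, and from 0.47 to 0.89 on the 18 arrays above 5% yield. These arrays share animals, groups and amplification, so the values are a description. Among all genes tested, the genes with the values most like those of Umod were Miox (0.95), Pck1 (0.95), Slc34a1 (0.94), Nat8f1 (0.94), Dnase1 (0.93), Mrps6 (0.93), Akr1c21 (0.92), Pdzk1ip1 (0.92), Mettl26 (0.90) and Cyp4b1 (0.89). The nearest to Egf were Slc34a1 (0.93), Kng1 (0.90) and Ugt2b38 (0.90), and those to Slc12a3 were Kng1 (0.90), Fabp3 (0.89) and Pgam2 (0.87). Defb1 was nearest to Acsm2 (0.91), Dnase1 (0.86) and Egf (0.84), and Cdh16 to Slc5a2 (0.89), Mettl26 (0.86) and Acaa1b (0.86). Slc12a1 was nearest to Glod5 (0.86), Miox (0.81) and Dnase1 (0.80), and Calb1 to Pgam2 (0.90), Abca13 (0.85) and Aldh6a1 (0.85). The lowest top values belonged to Aqp2, with Ttc36 (0.83), Ces1f (0.82) and Ptgfr (0.79), and to Kl, with Spink8 (0.81), Car4 (0.80) and Lrp2 (0.79).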

How the data were processed

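Per the submitters' processing notes the arrays were processed with RMA and Affymetrix Expression Console, without versions. The authors' deposited log2 values were the main measure. The deposited signals, linear intensities that the files show scaled to a trimmed mean of 500 per array (2% trimmed at each end), and the deposited P, M and A calls were the others. Probe sets were named through the platform annotation: 34958 had 1 gene, 932 several and 9211 were not listed. Genes called P on at least 2 arrays of a group (8341 of 18194) were fitted with limma 3.58.1 (R 4.3.3), group means over 21 arrays, two-sided, Benjamini-Hochberg. On simulated data the fit recovered 84.5% of genes changed by 8 on the log2 scale between 9 day Low and sham Low. The simulated arrays were independent and each gene had the same spread in all groups, unlike the data. Of the 9 genes only Egf had a difference that large there, so the rate does not give the power of these tests. The labels' animal numbers pair arrays across gates. The deviations of the 12 pairs from their group means correlated at -0.07 to 0.06. In groups of 2 arrays these deviations mirror each other, so both sham animals gave the same values and are not separate checks. Nothing says that the arrays of a group were pooled or not, and their number limits the precision.

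The 9 genes and all gene lists were chosen with earlier results of these data known. All 9 genes are named, with a fitted difference where its unadjusted p was under 0.05 and otherwise where an account of all 9 required it. Up to 4 genes of each other nephron list are named by smallest F test p, and the genes most like each of the 9 by Pearson r. Alternatives were the deposited signals, centring, quantile normalization, other filters, the mean of probe sets, animal blocks, leaving out arrays, and the share of P calls as a covariate. Some list genes are not reported here.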

Additional observations from a re-analysis of the deposited data

Results flagged for a closer look

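The 3 arrays labelled sham 58, in the Ly6C High gate and outside every comparison, carried signal of the 9 genes: 25 of 27 possible calls were P. All 3 carry the same label, so they may come from 1 animal and are not counted as replicates. The mean log2 values over the 9 genes were 8.26, 8.25 and 10.03, and Umod was at 10.75, 10.83 and 11.78. Among the arrays of the comparisons, the 2 sham High arrays had 7 of 18 calls P. All 7 were on replicate 2, while replicate 1 was an array of low yield, with 1.99% of all probe sets called P. No comparison was made.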

How the results depend on the processing

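Of 343 alternative values for 37 named differences and F tests of single genes, 316 kept direction and side of the threshold, 16 gained a call, 11 lost one, and 0 reversed. The cause was not tested for any of the changes below.

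The deposited signals gave 202 genes called over the 8 groups (329 in the main setting), 7 at 24 h against sham Intermediate (38), 0 at 4 h Intermediate (18), 1 at 4 h High (36), 0 at 9 days Intermediate (57) with 0 of the 9 distal genes (1), 21 at 9 days Low (83), 0 between the 9 day gates (52) and 0 between the sham gates (6). Quantile normalization gave 179, 9 at 4 h Intermediate, 8 at 4 h High, 14 at 9 days Low, 15 between the 9 day gates, 1 between the sham gates, 4 for the difference of effects (0), and 2 distal genes at 9 days Intermediate. Centring on the median gave 148 between the 9 day gates, 14 between the sham gates and 2 for the difference of effects. Without the filter the counts were 11 at 4 h High, 142 at 9 days Low, 91 between the 9 day gates, 37 between the sham gates and 23 for the difference of effects. The stricter filter (P on every array of a group) gave 0 between the sham gates and 2 distal genes at 9 days Intermediate. The mean of probe sets gave 65 at 24 h, 29 at 4 h Intermediate, 98 at 9 days Intermediate with 3 distal genes, 149 at 9 days Low, 140 between the 9 day gates, 39 between the sham gates and 10 for the difference of effects.

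Without the 3 arrays of low yield the counts were 503 over the 8 groups, 100 at 24 h with 2 distal genes, 30 at 4 h Intermediate, 70 at 4 h High, 110 at 9 days Intermediate, 206 at 9 days Low, 27 between the 9 day gates, 45 between the sham gates and 12 for the difference of effects. With the share of P calls as a covariate they were 60 at 24 h, 6 at 4 h High, 30 at 9 days Intermediate with 0 distal genes, 1 between the 9 day gates, 0 between the sham gates and 2 for the difference of effects. The replicate block with the animal as a fixed term gave 3 between the 9 day gates and 0 between the sham gates. The random replicate block gave 2 distal genes among 82 at 9 days Low and 42 between the 9 day gates. Against the mean of both sham gates, chosen after seeing the data, 8 distal genes and 241 genes were called at 9 days Low (3 and 83). That mean counts each sham animal in both gates without a block.

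Leaving out 1 array at a time, distal genes called ranged from 3 to 7 over the 8 groups, 0 to 3 at 24 h, 0 to 1 at 4 h High, 0 to 5 at 9 days Intermediate and 0 to 5 at 9 days Low. All genes called ranged from 146 to 1164 over the 8 groups, 23 to 95 at 24 h, 3 to 69 at 4 h Intermediate, 7 to 516 at 4 h High, 0 to 4 between the 4 h gates, 9 to 442 at 9 days Intermediate, 5 to 142 at 9 days Low, 8 to 1290 between the 9 day gates, 0 to 19 between the sham gates and 0 to 24 for the difference of effects. At 9 days Intermediate the count of distal genes was 0 without replicate 13 and without sham Intermediate replicate 1 or 2. At 9 days Low it was 0 without sham Low replicate 2. The highest counts of distal genes in both, and at 24 h, came without sham High replicate 1 and equally without replicate 2. Either fit left 1 array in sham High, which then added nothing to the estimate of the spread between arrays. At 4 h High the highest count of distal genes came without sham High replicate 2. For all genes, the highest count at 9 days Intermediate (442) came without 9 day Intermediate replicate 9.

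Calls of single genes were lost with the signals for Umod at 9 days Intermediate (adjusted p = 0.0824) and Defb1 at 9 days Low (0.0658), and with the covariate for Umod (0.0535). The Slc12a3 call at 9 days Low was also lost with quantile normalization (0.183), without the filter (0.0565) and with the mean of probe sets (0.0646). The limma F test call of Slc12a3 held in 6 of 9 alternatives, with an adjusted p of up to 0.0666. Groups of 2 or 3 arrays, and signals near background at 9 days, limit what these tests can resolve.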

Other observations

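On the sham 58 arrays the 9 genes were called P in counts of 8, 8 and 9, while proximal tubule genes were called in counts of 18, 14 and 9 of 25, with mean log2 values of 5.55, 5.49 and 5.00. The sham Low arrays had 25 and 22 of these 25 proximal genes called and means of 8.05 and 7.97. The mean of the 12 myeloid genes was 11.75 to 11.89 on the sham 58 arrays. On the array of reference RNA, 4 of the 9 genes were called P (Aqp2, Defb1, Egf and Slc12a1), at log2 values between 2.52 and 3.37.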
